A study of Mus musculus with 13 samples.

Results

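Total RNA of mouse embryonic fibroblasts (MEFs) knocked out for the mRNA-binding protein IMP2 (IMP2 KO) was set against that of IMP2 wild-type (IMP2 WT) MEFs. The libraries were taken by their titles, 1 of each genotype, 2 of the 13 libraries of the series, and autosomal genes were compared. The other total RNA libraries, 1 of IMP1 KO and 1 of IMP1 WT MEFs, served for scaling and as levels set beside. RNA immunoprecipitation (IP) libraries, where an antibody recovers a protein together with bound RNA, gave IMP2 IP and control IgG IP with 3 libraries each. The labels give the embryonic age as E12.5, for all groups, and culture in DMEM with serum, and describe the knockouts as cells deleted for IMP1 or IMP2. Mouse strain, the allele, the number of embryos behind a culture and the genotype of the IP cells are not given in the sources used here. With 1 library per genotype no difference below has a replicate check, no p-value was computed for it, and genotype, embryo, culture and library cannot be told apart.

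IMP2, the protein of the gene Igf2bp2, belongs to the insulin-like growth factor 2 mRNA-binding proteins, which bind mRNAs in the cytoplasm and influence how long they last, where they lie and how they are translated. MEFs are mixed connective tissue cells grown out of an embryo, and they can contain precursors of cartilage, fat and smooth muscle. Chondrocytes deposit a matrix of type II, IX and XI collagen under the control of the transcription factor Sox9. Myofibroblasts and smooth muscle cells carry a contractile apparatus whose genes share regulation by serum response factor.

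The files held raw read counts, and the IMP2 KO library had 16575386 counts in genes against 17225308 in the IMP2 WT library. Values are in CPM, counts brought to the same effective library size, and intervals are exact 95% intervals that cover counting error only. Of 43629 genes, 30887 were autosomal, and 9916 of these reached the expression floor of 10 CPM in at least 1 of the 4 total RNA libraries. Among them 738 (7.44%) were higher by 2-fold or more and 770 (7.77%) lower by 2-fold or more in IMP2 KO, together 15.2%. The pair of wild-type libraries, IMP2 WT over IMP1 WT, put 89 genes (0.898%) past 2-fold. IMP2 KO over IMP2 WT and IMP2 WT over IMP1 WT share the IMP2 WT library, so their counts are given side by side only. At least 8-fold were 154 genes higher and 144 lower in IMP2 KO, and no gene of the wild-type pair. The 2-fold limit applies to log2 ratios with a prior count of 2 added. Just past it on the higher side lay Caprin2 (10.9 CPM in IMP2 KO cells against 5.4 in IMP2 WT), and just short of it Mks1 (10.6 against 5.22 CPM). IMP2 KO lay at least 2-fold above each of the other 3 total RNA libraries for 478 genes (4.82%) and at least 2-fold below each for 438 (4.42%).

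Igf2bp2 (ENSMUSG00000033581; GRCm38.p6, chromosome 16, 22059009 to 22163299) had 28.2 CPM in IMP2 KO cells against 149 in IMP2 WT, a log2 ratio of -2.40. Reads of the targeted gene thus remained, and gene counts do not show from which exons they came. Of the other family members, Igf2bp3 had 13.7 CPM in IMP2 KO cells against 29.5 in IMP2 WT, 2.15-fold lower, and Igf2bp1, which encodes IMP1, had 16.2 against 24 CPM. Of the 70 other genes above the floor within 5 Mb of Igf2bp2, 7 were at least 2-fold higher and 5 lower (17.1%), with a median log2 ratio of 0.01. Among the autosomes the share of genes past 2-fold lay between 10.7% (chromosome 8) and 19.8% (chromosome 10).

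Sex-linked genes, outside the autosomal set, also separated the libraries. The Y-linked helicase gene Ddx3y had 0.183 CPM in IMP2 KO cells against 114 in IMP2 WT, and 0 in IMP1 KO cells against 51 in IMP1 WT. Xist, the RNA that coats the inactive X chromosome, had 7.51 CPM in IMP2 KO cells and 0 in IMP2 WT, and 9.89 CPM in IMP1 KO cells against 4.41 in IMP1 WT. Y-linked RNA was therefore at or near 0 in both knockout libraries and present in both wild-type libraries, so genotype and embryo sex cannot be told apart in any ratio below.

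**Figure D1:**
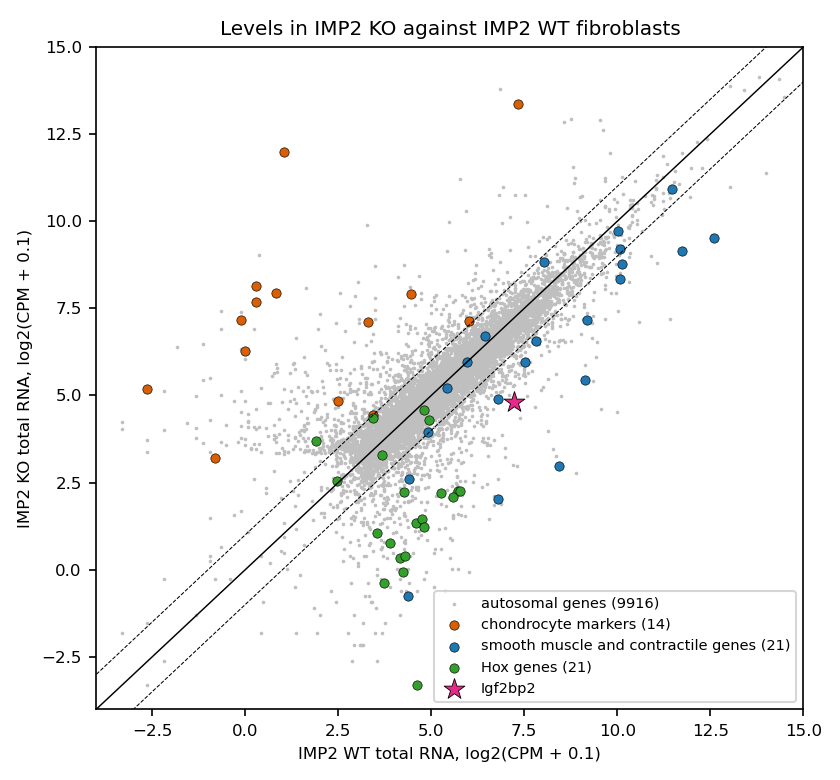
Levels of 9916 autosomal genes in IMP2 KO (vertical axis) and IMP2 WT (horizontal axis) total RNA, each as log2(CPM + 0.1), with the diagonal solid and 2-fold lines dashed. Chondrocyte markers (orange) lie above the diagonal, and 13 of the 21 contractile genes (blue) and 15 of the 21 Hox genes (green) lie below the lower dashed line; the star is Igf2bp2.

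Cartilage genes led the higher side. All 14 chondrocyte markers were above the floor, 13 of them at least 2-fold higher in IMP2 KO and none lower, with a median log2 ratio of 6.14 against -0.03 over all 9916 genes. The markers summed to 16202 CPM in IMP2 KO cells against 282 in IMP2 WT, and to 189 in IMP1 KO cells against 445 in IMP1 WT. Only 4 of the 14 reached the floor in IMP2 WT itself, so most entered through their level in a knockout library. Of those 4, 3 were at least 2-fold higher, with a median log2 ratio of 2.28 over the 4. In bulk RNA, more cells of a type and more RNA per cell cannot be told apart.

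Cnmd (ENSMUSG00000022025; chromosome 14, 79637682 to 79662194) encodes chondromodulin, a cartilage protein that inhibits blood vessel growth. It had 4065 CPM in IMP2 KO cells against 1.96 in IMP2 WT, from 66556 and 33 counts, a 2077-fold difference with a counting interval of 1479 to 3018; IMP1 KO had 3.3 CPM against 3.93 in IMP1 WT. Col2a1 (ENSMUSG00000022483; chromosome 15, 97975602 to 98004724), the chain of type II collagen, stood at 10566 CPM in IMP2 KO cells against 161 in IMP2 WT, and at 161 in IMP1 KO cells against 341 in IMP1 WT. Both messages were thus high in the IMP2 KO library alone among the 4. Col2a1 was the 7th most abundant gene there, with 1.04% of the counts.

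The minor cartilage collagens went with it. Col9a1 had 285 CPM in IMP2 KO cells against 1.13 in IMP2 WT, Col9a2 144 against 0.83, Col9a3 77.4 against 0.89, and the type XI chain Col11a2 206 against 1.13 CPM. Aggrecan (Acan), the large proteoglycan that holds water in cartilage, had 247 CPM in IMP2 KO cells against 1.66 in IMP2 WT, and its link protein Hapln1 had 137 against 9.73 CPM. Matn1, a matrilin that bridges cartilage fibrils, had 36.4 CPM in IMP2 KO cells against 0.0593 in IMP2 WT, where it rested on 1 count, so that its 614-fold ratio has a counting interval of 109.8 to 24287. Matn3 was the only chondrocyte marker not highest in IMP2 KO, with 9.16 CPM there against 0.474 in IMP2 WT but 10.7 in IMP1 KO cells against 1.36 in IMP1 WT. In IMP1 KO over IMP1 WT 4 of the 14 markers were at least 2-fold higher, Col9a2, Col11a2 and Matn1 among them, and 9 lower.

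Sox9, which turns on Col2a1 and Acan, had 240.5 CPM in IMP2 KO cells against 21.7 in IMP2 WT, 11.1-fold higher (counting interval 9.95 to 12.4), and 2.79 CPM in IMP1 KO cells against 21.8 in IMP1 WT. Its partners Sox6 (28.5 CPM in IMP2 KO cells against 5.51 in IMP2 WT) and Sox5 (21.6 against 10.7) had log2 ratios of 2.34 and 1.00, and Sox5 was the 1 marker short of the 2-fold limit. Nkx3-2, a repressor that favours chondrocyte fate in the somites, had 36.3 CPM in IMP2 KO cells against 1.96 in IMP2 WT, and Pax9, which acts with it in the vertebral column, had 42.8 against 4.09 CPM. Of the osteoblast markers 2 of 7 were above the floor, among them the bone transcription factor Runx2 with 81.5 CPM in IMP2 KO cells against 32.7 in IMP2 WT.

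Beyond the marker list, the 12 highest log2 ratios of all named autosomal genes held 5 of these markers (Cnmd, Col9a1, Matn1, Col11a2 and Col9a2). Each of the 12 was under the floor in every other total RNA library. They thus entered through IMP2 KO alone and were bound to be higher there. Matn4, another matrilin, had 526 CPM in IMP2 KO cells against 1.19 in IMP2 WT. Cytl1, a secreted protein known from cartilage, had 172 CPM in IMP2 KO cells against 0.534 in IMP2 WT, and Scube2, a secreted protein that helps release Hedgehog ligands, 83.3 against 0.178. Collagen Col26a1 (89.1 CPM in IMP2 KO cells against 0.356 in IMP2 WT), the protease inhibitor Slpi (119 against 0.534) and the Wnt receptor Fzd9 (169.9 against 0.83) followed. Reln, which encodes the secreted glycoprotein reelin, had 18.7 CPM in IMP2 KO and no count in IMP2 WT, at least 105-fold higher when 3 counts are taken for the 0. The most abundant gene past 2-fold on the higher side was Penk, precursor of the enkephalin peptides and chosen for mention after its value was seen, with 14224 CPM in IMP2 KO cells against 115 in IMP2 WT, and 16.1 in IMP1 KO cells against 72.7 in IMP1 WT.

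**Figure D2:**
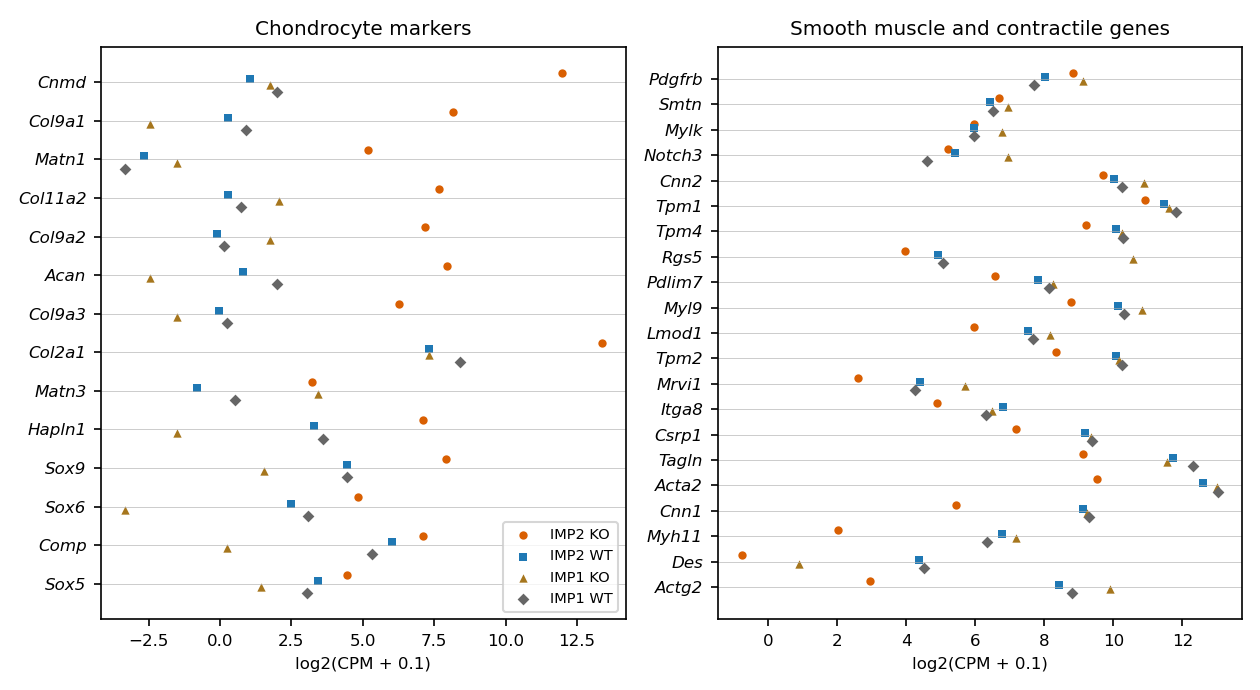
Levels, as log2(CPM + 0.1), of the 14 chondrocyte markers (left) and the 21 smooth muscle and contractile genes above the floor (right) in the 4 total RNA libraries, each gene on a row and each library a symbol. The orange IMP2 KO points lie to the right of the other libraries for 13 chondrocyte markers, all but Matn3, and to the left of them for the 13 contractile genes at the bottom, Pdlim7 to Actg2.

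Many contractile genes were lower. Of 25 smooth muscle and contractile genes, 21 were above the floor, all of them also in IMP2 WT; 13 were at least 2-fold lower in IMP2 KO and none higher, with a median log2 ratio of -1.55 (wild-type pair: -0.17). Each of these 13 was also at least 2-fold below both IMP1 libraries. Their list summed to 6506 CPM in IMP2 KO cells against 19390 in IMP2 WT, and to 25863 in IMP1 KO cells against 24834 in IMP1 WT.

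Smooth muscle actins and a myosin were among them. Actg2, the gamma smooth muscle actin, had 7.7 CPM in IMP2 KO cells against 343 in IMP2 WT, 44.6-fold lower (counting interval 37.4 to 53.6), and 948 CPM in IMP1 KO cells against 448 in IMP1 WT. Acta2 (ENSMUSG00000035783; chromosome 19, 34240336 to 34255585), the alpha smooth muscle actin that marks myofibroblasts, had 735 CPM in IMP2 KO cells against 6207 in IMP2 WT, and 8141 in IMP1 KO cells against 8384 in IMP1 WT. The myosin heavy chain Myh11 had 3.97 CPM in IMP2 KO cells against 110.4 in IMP2 WT. For these genes the IMP2 KO value stood below the other 3 libraries. Desmin (Des), an intermediate filament protein of muscle, was low in both knockouts, with 0.489 CPM in IMP2 KO cells against 20.8 in IMP2 WT and 1.77 in IMP1 KO cells against 22.8 in IMP1 WT.

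Regulators of the filaments followed. Calponin (Cnn1) had 43.5 CPM in IMP2 KO cells against 560.3 in IMP2 WT, transgelin (Tagln) 561 against 3404, tropomyosin Tpm2 327 against 1084 and the myosin light chain Myl9 440.5 against 1113 CPM. Members within 2-fold included the kinase Mylk (62.5 CPM in IMP2 KO cells against 62.7 in IMP2 WT), smoothelin (Smtn; 104 against 86.2) and the receptor Pdgfrb (459 against 259.6). The list therefore did not differ as a block. Kcnmb1, a potassium channel subunit of smooth muscle outside the list, had 0.0611 CPM in IMP2 KO, from 1 count, against 11.6 in IMP2 WT. The sarcomeric actin Acta1, a skeletal muscle marker, had 3.54 CPM in IMP2 KO cells against 103 in IMP2 WT, and 111 in IMP1 KO cells against 322 in IMP1 WT. The general actin cytoskeleton differed less, with 0 of 36 genes at least 2-fold higher and 5 lower, among them the alpha-actinins Actn1 (502 CPM in IMP2 KO cells against 1264 in IMP2 WT) and Actn4 (439 against 992).

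Serum response factor binds the CArG box, and promoter windows from RefSeq (GRCm38.p6, 250 bases before to 50 after the gene start) were searched for an exact match to its consensus, which reads the same on both strands. A match stood in 19 of the 572 lower genes that have a window (3.32%), in 4 of 538 higher genes (0.743%) and in 121 of all 7684 genes above the floor (1.57%). Of the contractile list 2 of 17 genes with a window held one, Myl9 and Cnn2, the second of which had 836 CPM in IMP2 KO cells against 1033 in IMP2 WT. A match is a description of the letters and not a bound site. Windows of 3 genes are shown because they set a strongly lower actin, a lower list member and a list member within 2-fold side by side, with the match in capitals: Acta1 (chr8:123894726-123895025, minus strand, match -73 from the start), Myl9 (chr2:156775214-156775513, plus strand, -161) and Cnn2 (chr10:79988350-79988649, plus strand, -56).
Acta1: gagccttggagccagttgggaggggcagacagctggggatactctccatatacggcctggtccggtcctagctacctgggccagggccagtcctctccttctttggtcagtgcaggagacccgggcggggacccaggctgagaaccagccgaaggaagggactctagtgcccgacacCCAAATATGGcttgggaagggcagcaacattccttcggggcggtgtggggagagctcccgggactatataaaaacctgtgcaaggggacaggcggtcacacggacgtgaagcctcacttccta
Myl9: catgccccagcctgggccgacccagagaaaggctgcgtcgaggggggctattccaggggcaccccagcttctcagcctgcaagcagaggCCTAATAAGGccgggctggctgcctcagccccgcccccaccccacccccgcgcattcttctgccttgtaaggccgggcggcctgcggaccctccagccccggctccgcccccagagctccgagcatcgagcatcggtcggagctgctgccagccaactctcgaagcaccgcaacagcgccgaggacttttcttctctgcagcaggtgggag
Cnn2: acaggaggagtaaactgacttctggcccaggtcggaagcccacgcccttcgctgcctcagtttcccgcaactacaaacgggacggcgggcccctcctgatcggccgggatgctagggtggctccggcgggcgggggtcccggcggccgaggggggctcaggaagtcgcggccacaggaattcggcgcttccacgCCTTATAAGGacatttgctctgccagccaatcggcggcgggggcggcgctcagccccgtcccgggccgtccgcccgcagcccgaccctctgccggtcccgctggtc

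Hox genes, which record position along the body axis from anterior (low numbers) to posterior (high numbers), were mostly lower. Of 39 Hox genes 21 were above the floor, with 1 at least 2-fold higher and 15 lower in IMP2 KO and a median log2 ratio of -3.22 (wild-type pair: -0.14). By paralog number, of 5 genes numbered 1 to 4, 1 was higher and 1 lower, of 9 numbered 5 to 8, 7 were lower, and all 7 numbered 9 to 13 were lower. Counting also genes below the floor, all 14 genes numbered 9 to 13 with a count were at least 2-fold lower on the same scale. The clusters differed: all 6 Hoxc genes above the floor, Hoxc4 to Hoxc10, were lower, with log2 ratios between -4.26 (Hoxc5) and -2.49 (Hoxc9) and no order by number.

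Hoxd13, the most posterior gene of its cluster and a marker of distal limb and genital mesenchyme, had no count in IMP2 KO cells against 24.6 CPM in IMP2 WT, at least 134-fold lower, and no count in IMP1 KO cells against 11.8 CPM in IMP1 WT. Hoxa10 had 4.64 CPM in IMP2 KO cells against 54.3 in IMP2 WT, and 0.254 in IMP1 KO cells against 36.5 in IMP1 WT. Some genes of the middle of the clusters were lower in IMP2 KO and not in IMP1 KO: Hoxc8 had 4.46 CPM in IMP2 KO cells against 38 in IMP2 WT, but 156 in IMP1 KO cells against 49.3 in IMP1 WT, and Hoxb9 had 4.7 against 52.5 and 103 against 78.3 CPM in the same order. Others there went differently, since Hoxd8 was low in both knockouts (4.58 CPM in IMP2 KO cells against 19.2 in IMP2 WT, and 0.169 in IMP1 KO cells against 16.1 in IMP1 WT) and Hoxa7 (19.4 against 30.8) and Hoxa5 (24 against 28.1) were within 2-fold in IMP2 KO. At the anterior end Hoxa2 was higher (12.9 CPM in IMP2 KO cells against 3.62 in IMP2 WT), Hoxb4 (9.77 against 12.8) was within 2-fold, and Hoxc4 (1.22 against 19.7) was lower. Of the 15 lower genes, 10 were at least 2-fold below each of the other 3 libraries.

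**Figure D3:**
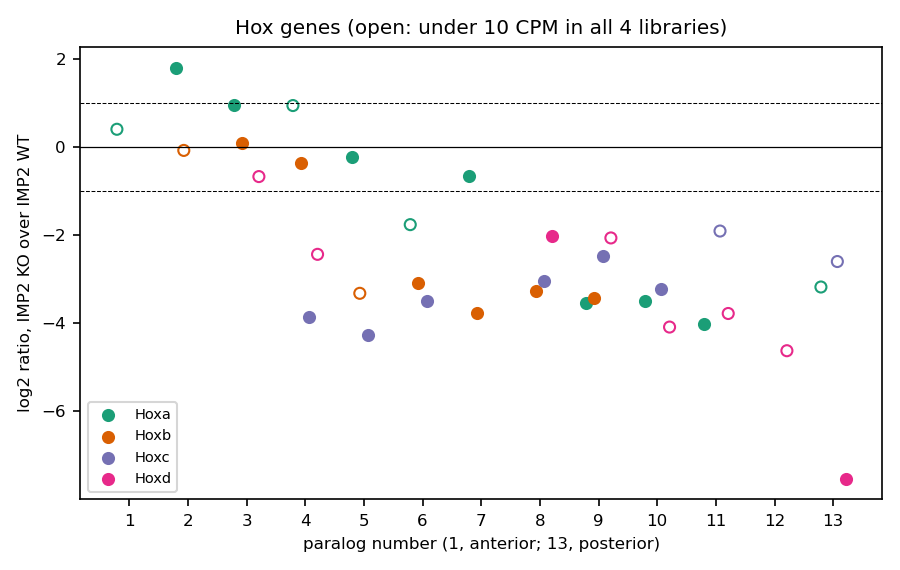
Log2 ratio of IMP2 KO over IMP2 WT for Hox genes with a count in either library, by paralog number and coloured by cluster, with filled points at or above the floor of 10 CPM in 1 of the 4 libraries and dashed lines at 2-fold. Filled points numbered 9 to 13 all lie below the lower dashed line, and Hoxa2 lies above the upper one.

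Other transcription factors of the mesenchyme were split. Of 69 positional factors 42 were above the floor, 11 at least 2-fold higher and 14 lower in IMP2 KO, with a median log2 ratio of 0.32. Of the 32 at the floor in IMP2 WT, 5 were higher and 12 lower. Limb factors were among the lowest. Lhx9 had 1.16 CPM in IMP2 KO cells against 45.4 in IMP2 WT, Shox2, a regulator of the proximal limb, 2.81 against 60, and Tbx18 2.81 against 48.1 CPM. The forelimb gene Tbx5 (1.22 CPM in IMP2 KO cells against 21.4 in IMP2 WT) and the hindlimb genes Tbx4 (2.5 against 24.1) and Pitx1 (4.52 against 48.2) were all lower, as in IMP1 KO, where the 3 values were 0, 0 and 0.0845 against 16.6, 17 and 39.1 CPM in IMP1 WT. On the higher side, Sim2 had 95 CPM in IMP2 KO cells against 10.3 in IMP2 WT, and 0 in IMP1 KO cells against 26.3 in IMP1 WT.

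The insulin-like growth factor (IGF) axis, from which the IMP family takes its name, held large differences in level. IGF-binding proteins carry the growth factors outside the cell and limit or extend their action. Of 12 members above the floor, 5 were at least 2-fold higher (41.7%) and 2 lower (16.7%) in IMP2 KO, beside 7.44% and 7.77% of all genes. Igfbp5 had 7437 CPM in IMP2 KO cells against 379 in IMP2 WT, but 8.54 in IMP1 KO cells against 338 in IMP1 WT. Igfbp2 had 7893 CPM in IMP2 KO cells against 429.5 in IMP2 WT, with 33 in IMP1 KO cells against 383 in IMP1 WT, and Igfbp4 had 2399 against 462 and 14.6 against 312 CPM in the same order. For all 3 binding proteins IMP2 KO was the highest and IMP1 KO the lowest of the 4 libraries. Igfbp7 and Igfbp6 went the other way, with 138 CPM in IMP2 KO cells against 1531 in IMP2 WT and 8.25 against 43.6 CPM.

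The 2 ligands had smaller ratios. Igf1 had 205 CPM in IMP2 KO cells against 47.7 in IMP2 WT. Igf2, the mRNA after which IMP2 was named, had 1019 CPM in IMP2 KO cells against 513 in IMP2 WT, just short of 2-fold (log2 ratio 0.99). Against the other wild-type library, at 1636 CPM, the Igf2 ratio had the opposite sign (log2 -0.68, a comparison chosen after seeing the data), so its direction depended on the wild type. The adaptor Irs1, which couples insulin and IGF receptors to PI3-kinase, had 69 CPM in IMP2 KO cells against 14.1 in IMP2 WT, and the receptors Igf1r (52.2 against 74.2) and Insr (49.2 against 54.9) were within 2-fold. Of 29 mTOR and AKT signalling genes 3 were at least 2-fold higher (10.3%), Deptor, Pik3r1 and Sesn1, and 1 lower (3.45%), the kinase Sgk1. These shares lay near the 7.44% and 7.77% of all genes above the floor.

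Among 21 mRNAs reported elsewhere as bound or regulated by IMP proteins, a list from general knowledge, the median log2 ratio was -0.37. At least 2-fold higher was 1 of them (4.76%) and lower were 4 (19%), beside 7.44% and 7.77% of all genes above the floor. Cd44, a hyaluronan receptor, had 42.6 CPM in IMP2 KO cells against 649 in IMP2 WT. The chromatin protein genes Hmga2 (35.4 CPM in IMP2 KO cells against 247 in IMP2 WT) and Hmga1 (5.74 against 60.2) and the cyclin G gene Ccng1 (347 against 1018) were the other lower ones. All 4 were also lower in IMP1 KO than in IMP1 WT, at 189.9 against 963 CPM for Cd44 and 103 against 512 for Hmga2. In IMP2 WT over IMP1 WT 3 of the 21 were at least 2-fold lower (0.444% of all genes). These were Igf2, Hmga1 and Hmga2, with log2 ratios of -1.67, -1.10 and -1.05. Actb (2130 CPM in IMP2 KO cells against 3244 in IMP2 WT), Myc (54.1 against 74.3) and Ccnd1 (371 against 494) were within 2-fold, and Nedd4l, a ubiquitin ligase, was the higher one (43.3 against 15.9).

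Imprinted genes, expressed from 1 parental allele and many of them active in embryonic growth, were mostly higher or within 2-fold. Of 23 above the floor 11 were at least 2-fold higher and 1 lower, with a median log2 ratio of 0.99 (wild-type pair: 0.04). Dlk1, a membrane protein that holds back fat cell differentiation, had 2384 CPM in IMP2 KO cells against 54.4 in IMP2 WT, and 322 in IMP1 KO cells against 149 in IMP1 WT. Mest had 1728 CPM in IMP2 KO cells against 152 in IMP2 WT, the zinc finger gene Peg3 984 against 118 and the cell cycle inhibitor Cdkn1c 192 against 23.4 CPM. In IMP1 KO these 3 were below IMP1 WT, at 47.1 against 101, 29.8 against 84.4 and 5.58 against 25.1 CPM. H19, the non-coding RNA beside Igf2, had 2554 CPM in IMP2 KO cells against 2131 in IMP2 WT, and Snrpn was the 1 lower gene (9.59 against 20.5).

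Signals that pattern connective tissue differed gene by gene. Of 36 Wnt pathway genes 15 were at least 2-fold higher and 6 lower, beside 7.44% and 7.77% of all genes above the floor. Among the 27 that reached the floor in IMP2 WT itself, 8 were higher and 4 lower. The other members entered through another library. The secreted Wnt modulator Sfrp2 had 959 CPM in IMP2 KO cells against 9.55 in IMP2 WT, and 0.507 in IMP1 KO cells against 6.58 in IMP1 WT. Nkd1, a feedback inhibitor of the pathway, had 147 CPM in IMP2 KO cells against 8.24 in IMP2 WT and was as high in IMP1 KO (147 against 7.59 CPM in IMP1 WT). The antagonist Dkk2 was lower, at 2.87 CPM in IMP2 KO cells against 47.7 in IMP2 WT. Of 39 TGF-beta and BMP genes 9 were higher and 8 lower, and of the 35 at the floor in IMP2 WT 6 and 8. The ligand Gdf10 had 99.8 CPM in IMP2 KO cells against 2.49 in IMP2 WT. The BMP antagonist Grem1 had 24.4 CPM in IMP2 KO cells against 757 in IMP2 WT, with 1487 in IMP1 KO cells against 699 in IMP1 WT, and the activin chain Inhba 5.07 against 82.

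The matrix outside cartilage was split as well. Of 21 collagens 8 were at least 2-fold higher and 2 lower, and of the 18 at the floor in IMP2 WT 5 and 2. The fibrillar Col1a1 (18083 CPM in IMP2 KO cells against 14366 in IMP2 WT) and Col3a1 (4969 against 4503) were within 2-fold. Col14a1 was higher (134 against 5.28) and Col7a1, the anchoring fibril collagen, was lower (1.41 against 34.4). Of 52 matrix glycoproteins and crosslinkers 7 were higher and 13 lower. Ogn, the small proteoglycan osteoglycin, had 7602 CPM in IMP2 KO cells against 743 in IMP2 WT. Osteopontin (Spp1) had 2673 CPM in IMP2 KO cells against 16351 in IMP2 WT, the elastic fibre protein Fbln2 776 against 6023, and the crosslinking enzyme Loxl2 68.2 against 684 CPM. Spp1 was lower still in IMP1 KO, at 25.9 CPM against 11567 in IMP1 WT. Of 25 matrix proteases and inhibitors 4 were higher, among them Mmp2 (2276 CPM in IMP2 KO cells against 815 in IMP2 WT), and 6 lower. Of 29 adhesion receptors 6 were higher and 11 lower, and of the 26 at the floor in IMP2 WT 3 and 11. The collagen receptor subunit Itga2 had 17.7 CPM in IMP2 KO cells against 0.593 in IMP2 WT. Mcam, an adhesion molecule of vessel walls, had 15.8 against 284 CPM.

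Secreted inflammatory factors lay on both sides, with 8 of 24 at least 2-fold higher and 11 lower. Among the 18 that reached the floor in IMP2 WT itself, 3 were higher and 10 lower, so most of the higher ones entered through another library. Complement genes C4b (247 CPM in IMP2 KO cells against 5.75 in IMP2 WT) and C3 (304 against 8.06) and the chemokine Cxcl12 (6299 against 791) were higher. Ptgs2 (ENSMUSG00000032487; chromosome 1, 150100031 to 150108234), the inducible cyclooxygenase that makes prostaglandin precursors, had 6.72 CPM in IMP2 KO cells against 474 in IMP2 WT, 70.6-fold lower (counting interval 58.5 to 86), and 71.6 CPM in IMP1 KO cells against 759.9 in IMP1 WT. The constitutive enzyme Ptgs1 had 3.48 CPM in IMP2 KO cells against 55.6 in IMP2 WT, and the chemokine Cxcl14 23.1 against 1017 CPM. Macrophage and leukocyte markers moved beside these genes. The 12 markers summed to 317 CPM in IMP2 KO cells against 38.9 in IMP2 WT and to 14.7 in IMP1 KO cells against 29.5 in IMP1 WT, none was at 0 in IMP2 KO or IMP2 WT, and 7 of 12 were above the floor, such as Adgre1 (24.5 against 1.13) and Csf1r (33.3 against 4.27). Only 1 of the 7 reached the floor in IMP2 WT; the others entered through IMP2 KO and were bound to be higher there. Their part in the higher inflammatory genes was not tested. Of 29 interferon-stimulated genes 5 were at least 2-fold higher and none lower, with a median log2 ratio of 0.60, and the wild-type pair had a median of 0.48. Of the 22 at the floor in IMP2 WT, 2 were higher.

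Many glycolysis and hypoxia genes were lower. Of 29 above the floor 16 were at least 2-fold lower and 1, Ndrg1, higher, with a median log2 ratio of -1.17 (wild-type pair: 0.14). In IMP1 KO over IMP1 WT 8 of the 29 were at least 2-fold lower (7.47% of all genes) and none higher, with a median of -0.67. Only 2 of the 16 were at least 2-fold below each of the other 3 libraries. The glucose transporter Slc2a1 had 47.2 CPM in IMP2 KO cells against 183 in IMP2 WT, and 45 in IMP1 KO cells against 176 in IMP1 WT. Pyruvate kinase (Pkm) had 303 CPM in IMP2 KO cells against 1267 in IMP2 WT, with 532 in IMP1 KO cells against 1330 in IMP1 WT, and the lactate exporter Slc16a3 7.76 against 157 and 6.09 against 129 CPM. For these 3 genes both knockout libraries lay below both wild-type libraries. Egln3, an oxygen-sensing prolyl hydroxylase, had another pattern, with 0.183 CPM in IMP2 KO cells against 12.6 in IMP2 WT and 12.2 in IMP1 KO cells against 12.6 in IMP1 WT.

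The lowest ratios of all named autosomal genes also held genes outside these lists. Alkal1, a ligand of the ALK receptor kinase, had 0.855 CPM in IMP2 KO cells against 64.4 in IMP2 WT, and 93.9 in IMP1 KO cells against 48.8 in IMP1 WT. Lrrc15, a membrane protein of activated fibroblasts, had 0.55 CPM in IMP2 KO cells against 41.3 in IMP2 WT, with 3.21 in IMP1 KO cells against 29.2 in IMP1 WT. The choline transporter Slc5a7 had 0.916 CPM in IMP2 KO cells against 47 in IMP2 WT, Mfap3l 0.611 against 33.3 and the small heat shock protein of muscle Hspb7 0.305 against 17.9 CPM. Alkal1 and Hspb7 were high in IMP1 KO, where Hspb7 had 35.9 CPM against 18.2 in IMP1 WT.

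Growth and stress genes differed by list. Of 52 cell cycle genes 3 were lower (Ccne1, Aurka and Rrm2) and none higher, with a median log2 ratio of -0.41 beside -0.34 in the wild-type pair. Of 28 p53 targets and senescence genes 3 were higher (10.7%) and 6 lower (21.4%), with a median log2 ratio of -0.67. Among all genes above the floor 7.44% were higher and 7.77% lower. The p53 target Cdkn1a had 268 CPM in IMP2 KO cells against 816 in IMP2 WT and the proapoptotic Pmaip1 9.59 against 92.7 CPM. Of 30 cholesterol and fatty acid synthesis genes 5 were lower (16.7%) and none higher, with a median log2 ratio of -0.60. The desaturase Scd1 had 50 CPM in IMP2 KO cells against 180.5 in IMP2 WT.

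Housekeeping groups held few or no genes past 2-fold. No gene passed it among 71 mitochondrial ribosomal proteins, 53 cytosolic ribosomal proteins, 36 translation factors, 33 endoplasmic reticulum chaperones, and 31 RNA-modification and mRNA-binding proteins. In oxidative phosphorylation 1 of 68 genes was lower (Cox5a, 34 CPM in IMP2 KO cells against 69.6 in IMP2 WT) and in the proteasome 1 of 31 (Psmd8, 132 against 402). Ribosomal protein genes share reads with many processed copies, so their counts are uncertain. Of 8 nuclear non-coding RNAs 1 was higher (Dleu2) and 1 lower (Malat1, 25.4 against 87.7 CPM).

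**Figure D4:**
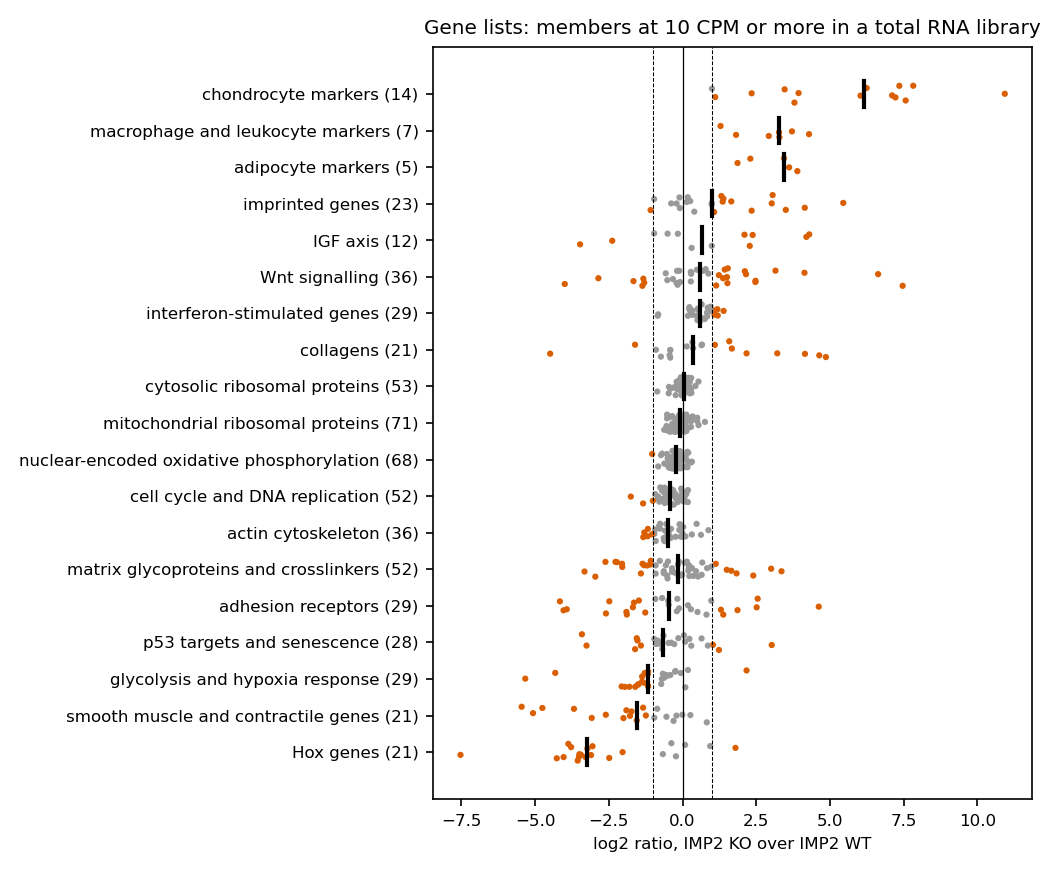
Log2 ratio of IMP2 KO over IMP2 WT for the members above the floor of 19 gene lists, with a point per gene (orange at or past 2-fold), a bar at the median and the number of members in brackets. Medians run between 6.14 for chondrocyte markers and -3.22 for Hox genes. Most chondrocyte markers passed the floor through a knockout library, and the 4 at the floor in IMP2 WT have a median of 2.28. Ribosomal and mitochondrial genes lie close to 0, and cell cycle genes have a median of -0.41.

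Fibroblast markers were found in both libraries. All 13 were above the floor, summing to 61335 CPM in IMP2 KO cells against 58864 in IMP2 WT. Matrix genes made up most of the sum. Col1a1 had 18083 CPM in IMP2 KO cells against 14366 in IMP2 WT, Fn1 17339 against 20809 and Col1a2 13827 against 10792. Of the 13 markers, 3 were at least 2-fold higher (Pdgfra, Dcn and Lum) and 3 lower (Thy1, S100a4 and Prrx1). Thy1, a surface protein used to sort fibroblasts, had 92.7 CPM in IMP2 KO cells against 695 in IMP2 WT. Adipocyte markers summed to 254.5 CPM in IMP2 KO cells against 35.4 in IMP2 WT, and to 152.2 in IMP1 KO cells against 36.48 in IMP1 WT. Above the floor were 5 of 10, of which 1 reached it in IMP2 WT while the others entered through a knockout library. All 5 were at least 2-fold higher in IMP2 KO, and all 5 also in IMP1 KO over IMP1 WT. The IMP2 KO ratios were led by Plin4 (47.6 against 3.08) and Pparg (58.1 against 4.63), the regulator of fat cell fate. Of the neural list, 5 were above the floor, 1 higher and 3 lower, among them Stmn2 (0.916 against 52.5). Endothelial markers above the floor were 3 of 10, 1 higher and 1 lower, epithelial markers 1 of 10 (Krt19, lower), and all 7 erythroid markers were at 0 in both libraries.

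Whether RNAs recovered with IMP2 differ in the knockout was asked by joining the pull-down to the total RNA ratio. In IMP2 IP against IgG IP, edgeR's quasi-likelihood test over 14076 genes put 568 (4.04%) higher and 2298 (16.3%) lower by 2-fold or more at an adjusted p under 0.05. The origin of the 3 libraries of a group (1 culture or several) is not stated, so these p-values measure the spread between the libraries only. Of the autosomal genes above the floor, 471 were higher in IMP2 IP, 280 lower, and 8685 in neither class. Reads outside genes were 24.16% to 25.15% of the records in the IgG IP libraries and 4.697% to 5.218% in the IMP2 IP libraries. The control thus differed from IMP2 IP in the make-up of its reads, and the part of that in these classes was not tested. Of 8 nuclear non-coding RNAs 6 were in the lower class.

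The 471 RNAs higher in IMP2 IP had a median log2 ratio of -0.11 in IMP2 KO over IMP2 WT, with 19 at least 2-fold higher (4.03%) and 41 lower (8.7%). The 280 RNAs lower in IMP2 IP had a median of 0.21, with 53 higher (18.9%) and 35 lower, and the rest had a median of -0.03, with 6.11% higher and 6.98% lower. Across 9436 genes the pull-down ratio and the knockout ratio had a Pearson correlation of -0.103 and a Spearman correlation of -0.139, a weak relation in which genes are not independent points. The 480 genes above the floor that the pull-down could not test for low counts held the most differences, 46.5% past 2-fold, and 7 of the 14 chondrocyte markers were among them.

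Part of the contractile genes were higher in IMP2 IP than in IgG IP. Of 21 contractile genes 7 were higher in IMP2 IP (Acta2, Actg2, Tagln, Cnn2, Myl9, Des and Csrp1), beside 471 of all 9916 genes above the floor. Of these 7, 6 were at least 2-fold lower in IMP2 KO, with a median log2 ratio of -2.60 over the 7. In the whole list 13 of the 21 were lower (61.9%), with a median of -1.55, so most of the list was lower in any case. The median pull-down log2 ratio of the contractile list was 0.27, below the 0.82 of oxidative phosphorylation genes and the 0.80 of mitochondrial ribosomal protein genes. Their level in the pull-down libraries was low for some: Actg2 had 0.728 ± 0.0266 CPM in the IMP2 IP against 0.318 ± 0.224 in IgG IP (SD, n = 3 each; edgeR adjusted p = 0.0177), whereas IMP2 WT total RNA had 343. Higher in IMP2 IP were also 17 of 68 oxidative phosphorylation genes and 12 of 71 mitochondrial ribosomal protein genes. None of these 29 was past 2-fold in IMP2 KO, and their medians were -0.24 and -0.17. In the whole lists 1 of the 68 and none of the 71 passed it, with medians of -0.21 and -0.08.

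Among RNAs higher in IMP2 IP, the lowest in IMP2 KO after Actg2 and Des were Cck, Uchl1 and Krt19. Uchl1, a neuronal ubiquitin hydrolase, had 82.3 ± 9.82 CPM in the IMP2 IP against 33.7 ± 2.02 in IgG IP (SD, n = 3 each; edgeR adjusted p = 5.61e-13), and 3.48 CPM in IMP2 KO cells against 70 in IMP2 WT total RNA. The highest in IMP2 KO were Klf15, Ccn3, Ccl9, Lyz2 and Igfbp4. Ccn3, a secreted matricellular protein, had 35 ± 0.93 CPM in the IMP2 IP against 17 ± 1.17 in IgG IP (SD, n = 3 each; edgeR adjusted p = 9.2e-12), and 1009 CPM in IMP2 KO cells against 44.7 in IMP2 WT. RNAs higher in IMP2 IP than in IgG IP were thus found on both sides of the knockout ratio.

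**Figure D5:**
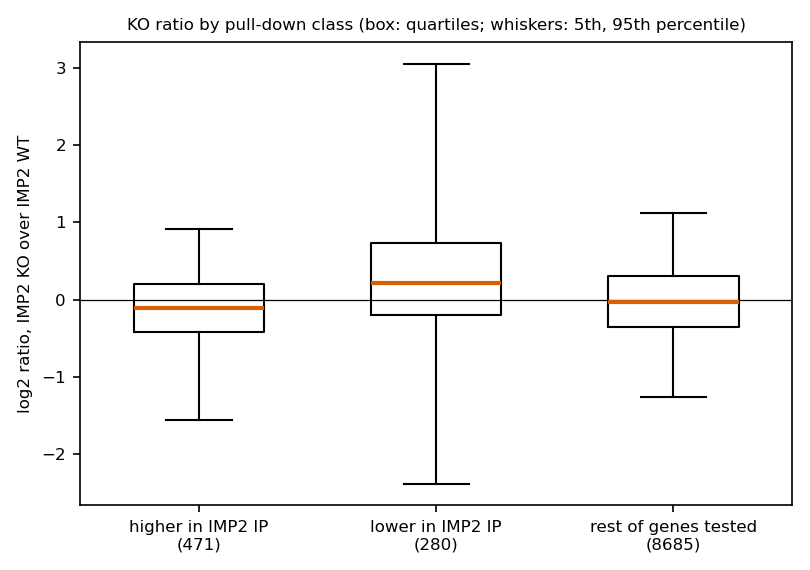
Log2 ratio of IMP2 KO over IMP2 WT total RNA for 471 genes higher and 280 lower in IMP2 IP than IgG IP and for 8685 genes in neither class, with the median in orange, boxes at the quartiles and whiskers at the 5th and 95th percentile. The medians are -0.11, 0.21 and -0.03, and the boxes overlap.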

How the data were processed

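RNA was sequenced by the submitters from Illumina TruSeq libraries, 4 of total RNA and 9 of immunoprecipitated RNA. The deposited values were raw read counts per Ensembl gene. The authors handled reads with STAR and HTSeq against mm10, per the submitters' processing notes, and versions, strand setting and annotation release are not given in the sources used here. Overlapping, antisense and near-identical genes are therefore uncertain (ribosomal proteins, Hmga1, Aldoa, Eno1 and Pkm among them). The 5 tally lines of each file were kept apart. Reads outside genes were 5.1% of the records in IMP2 KO and 4.71% in IMP2 WT, and reads without a unique position 38.43% and 39.02%. Symbols matched 42462 of 43629 genes, and the RefSeq table of GRCm38.p6 gave chromosomes for 33284.

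CPM were scaled by TMM (edgeR 4.0.16, R 4.3.3) over the 4 total RNA libraries. Log2 ratios used a prior count of 2, genes needed 10 CPM in at least 1 of the 4 libraries, and 2-fold was the limit. Folds are CPM ratios with exact conditional binomial 95% counting intervals, and a count of 0 was taken as 3 counts (0.183 CPM in IMP2 KO and 0.178 in IMP2 WT on the scaled CPM). The pull-down was tested in 1 quasi-likelihood fit of the 9 IP libraries with Benjamini-Hochberg adjustment, no covariate and a threshold of adjusted p under 0.05. Both steps were tested on simulated data.

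Members, gene lists and alternatives were chosen with earlier results of these data known. Genes were named by rule: the 12 highest and 12 lowest ratios, the 8 highest and 8 lowest of the genes at least 2-fold apart from all other total RNA libraries, the IMP family, up to 3 members at each end of a list, and the 5 highest and 5 lowest genes recovered with IMP2. Not every list member that the rule gave is in the text. Other list members given as examples, Penk and the promoter windows were chosen after their values were seen. Alternatives were other scalings, prior counts, floors and folds, all chromosomes, IMP1 WT in place of IMP2 WT (chosen after seeing the data) and, for the pull-down, DESeq2 1.42.0, no filter, fewer libraries, a replicate block and leaving out single libraries.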

Additional observations from a re-analysis of the deposited data

Results flagged for a closer look

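Xist, the RNA that coats the inactive X chromosome, lies outside the autosomal genes compared. It had 7.51 CPM in IMP2 KO, from 123 counts, and no count in IMP2 WT, which allows up to 0.178 CPM there. It is listed because a signal appeared in genes that the comparison does not use, above the level in the wild-type library. Y-linked Eif2s3y had 0.122 CPM in IMP2 KO cells against 50.4 in IMP2 WT, and Uty and Kdm5d had no count in IMP2 KO against 22.9 and 16.8 CPM in IMP2 WT. Their relation to the autosomal ratios was not tested.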

How the results depend on the processing

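Scaling by total counts, upper quartile or DESeq2 size factors moved the median of all genes by -0.0163 to 0.0128 (log2), and gave 750, 724 and 755 genes higher and 763, 784 and 761 lower. A prior count of 0.5 gave 748 and 773, and all chromosomes 772 and 812. At 3-fold 400 genes were higher and 415 lower (9 past it in the wild-type pair). A floor of 1 CPM gave 1469 and 1298 (wild-type pair 433), and no floor 2065 and 1802 (wild-type pair 1240, and 20 near Igf2bp2 against 12), since more low genes entered. With IMP1 WT in place of IMP2 WT, chosen after seeing the data, 954 were higher and 943 lower. Of 147 named genes past 2-fold, 146 or 147 kept it and none changed sign under each of these settings but 3-fold and all chromosomes, for which this was not counted. List medians reversed with IMP1 WT for cytosolic ribosomal proteins (-0.13 against 0.04), matrix glycoproteins (0.0503 against -0.148) and histones (0.093 against -0.14). Endoplasmic reticulum chaperones went across 0 with total count scaling and DESeq2 size factors (0.0003 and 0.0002 against -0.0126). Medians also reversed for endothelial markers with a floor of 1 CPM or none (-1.62 and -0.61 against 0.60), and with no floor for positional factors (-0.34 against 0.32) and for epithelial and skeletal myoblast markers (0 and 0 against -3.87 and -4.94).

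In the pull-down, 471 genes above the floor were higher in IMP2 IP; the number was 776 with no filter, 325 with DESeq2's Wald test, 327 with its size factors in edgeR and 357 with only the IMP2 and IgG libraries. Leaving out each library in turn gave 474 to 600 genes higher and 265 to 284 lower, with median knockout ratios of -0.13 to -0.11 and 0.19 to 0.24. Replicate numbers did not pair the libraries (correlations of deviations -0.073, -0.012 and -0.017), and the replicate block gave 475 genes higher and 280 lower, with medians of -0.11 and 0.21. Depth limits genes near 0: Matn1, with 1 count in IMP2 WT, has a counting interval of 109.8 to 24287 for its fold. The ratios themselves rest on 1 library per genotype.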

Other observations

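The IMP1 knockout was a second, separate pair of libraries. Of the 1508 autosomal genes past 2-fold in IMP2 KO over IMP2 WT and the 1255 in IMP1 KO over IMP1 WT, 711 were past it in both, 47.1% of the first set and 56.7% of the second. Over all 9916 genes above the floor, 15.2% were past it in IMP2 KO over IMP2 WT and 12.7% in IMP1 KO over IMP1 WT. In the same direction lay 466 of them, 192 higher and 274 lower in both knockouts. In opposite directions lay 245, of which 183 were higher in IMP2 KO and lower in IMP1 KO and 62 the reverse. Among the named genes Pax9 had log2 ratios of 3.34 in IMP2 KO over IMP2 WT and -4.41 in IMP1 KO over IMP1 WT, and the macrophage marker Adgre1 4.29 and -3.83. Both knockout libraries lacked the Y-linked RNA present in both wild-type libraries, and the part of that in the shared differences was not tested.

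By type of gene, 8 of 55 long non-coding RNAs were at least 2-fold higher and 6 lower (25.5% past 2-fold), beside 727 and 748 of 9596 protein-coding genes (15.4%). By mean level in IMP2 KO and IMP2 WT, the share past 2-fold was largest under 10 CPM, at 39.5%. A gene with a mean under 10 CPM passed the floor through only IMP2 KO, only IMP2 WT or an IMP1 library. The floor itself therefore favoured unequal genes in that band, and its share is not a dependence on level alone. The share was 14.8% at 10 to 30 CPM, 10.9% at 30 to 100, 12.4% at 100 to 300 and 23.3% at 300 CPM or more.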
